A study of Mus musculus with 4 samples.

Results

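The response of mouse dendritic cells to CCR7 ligands was read under a control siRNA, as the ratio of a stimulated to an unstimulated library over 11041 of the 18021 genes measured. Genes entered when their mean over the 4 libraries of the experiment was at least 1 FPKM (fragments per kilobase of transcript per 1e6 fragments). The cells came from C57BL/6 marrow and were grown for 5 days with GM-CSF and IL4, and all of them were then matured with LPS at 100 ng/ml for 24 h, so the unstimulated cells are mature cells too. They were transfected with si-NC, the control siRNA, or with si-Lnc-Dpf3, named for a long non-coding RNA. Each siRNA was combined with medium alone (Med) and with CCL19 plus CCL21 (CCR7L) for 12 h. Each of these 4 groups is 1 library, so ratios carry no test, no error between replicates and no p-value. The pair in si-Lnc-Dpf3 cells shares no library with the pair in si-NC cells, and its values are set beside many of the results. Nothing says whether the 4 libraries came from separate cultures or animals.

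CCR7 is a G protein-coupled chemokine receptor that mature dendritic cells display and that guides them along CCL19 and CCL21 through lymphatic vessels into lymph nodes. It signals through Gi proteins to PI3K and ERK, and the receptor is known to affect survival, maturation and antigen uptake in these cells besides movement. Mature dendritic cells carry peptide on MHC class II molecules to T cells, and the genes of that pathway depend on the transactivator CIITA.

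The markers fit the label of mature dendritic cells. Itgax, which encodes CD11c, stood at 33.3 FPKM unstimulated and 32.7 with CCR7L, and Flt3, the receptor of a dendritic cell growth factor, at 12.5 and 12.6. Ccr7 itself stood at 808 and 681 FPKM, while the markers of cross-presenting cells Xcr1 (0.45 and 0.47) and Clec9a (0.23 and 0.26) were below the filter. Markers of other cells were present as well. The 14 listed neutrophil markers summed to 9320 FPKM unstimulated and 9694 with CCR7L, the 10 mast cell and basophil markers to 461 and 438, and the 10 macrophage markers to 524 and 507. In si-Lnc-Dpf3 cells these sums were 13752 and 13885, 401 and 399, and 442 and 445. Of the 13 neutrophil markers past the filter 5 were above 0 in log2 ratio and 8 below, and 1 (Ly6g, 3.98 and 2.23 FPKM) was at least 1.5-fold lower. Of 14 measured dendritic cell markers 7 were above 0 and 7 below. By at least 1.5-fold 2 were higher (H2-Ab1 and Dpp4) and 1 lower (Cd83), against 0.752% and 1.14% of all genes. The 16 listed dendritic cell markers summed to 4540.5 FPKM unstimulated and 5314 with CCR7L, and to 3794 and 5127 in si-Lnc-Dpf3 cells. T and NK cell markers summed to 6.32 and 7.98 FPKM, with Ncr1 at 0 and 0.07 and Klrb1c at 0 and 0.03. B cell markers summed to 6.93 and 5.66, plasmacytoid dendritic cell markers to 23.6 and 23.3, erythroid markers to 3.68 and 3.51 and stromal markers to 2.08 and 1.95. The part of these cells in the ratios below was not tested. In such bulk libraries fewer cells of a type and less RNA per cell cannot be told apart.

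All values below are FPKM, and ratios are log2 ratios of FPKM + 1 of CCR7L over unstimulated unless stated. Depth, estimated from the spacing of low values, was 19.8 for each si-NC library and 19.7 to 20.1 for the others, in units of 1e6 reads. At the median transcript length of 2819 bases, counting error at a 95% level alone reaches a 1.45-fold ratio at 1 FPKM, 1.12-fold at 10 FPKM and 1.04-fold at 100 FPKM. These are folds of read numbers, on a different scale from the ratios of FPKM + 1.

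Most genes differed little between the 2 si-NC libraries. The median log2 ratio of the 11041 genes was -0.01, and the central 95% lay between -0.40 and 0.34. By at least 2-fold, 21 genes were higher with CCR7L, 0.19% of those measured, and 29 were lower, or 0.263%, together 0.453%. At the milder size of 1.5-fold, 83 genes were higher (0.752%) and 126 lower (1.14%), together 1.89%. Ratios above 0 made up 46.1% and ratios below 0 made up 53.4% of all genes. The share past 1.5-fold depended on the level of the gene: it was 3.97% of 1511 genes between 1 and 3 FPKM and 0.99% of 811 genes at 100 FPKM or more. Of the 209 genes past 1.5-fold, 60 averaged under 3 FPKM and 8 averaged at least 100, of which 6 were higher and 2 lower. At the edge of the filter, Gk5 (mean 1.0025) was the last gene inside, with 0.99 and 1.06 FPKM in si-NC cells, and Ggt5 (mean 0.9975) the first outside, with 1.16 and 0.78.

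**Figure D1:**
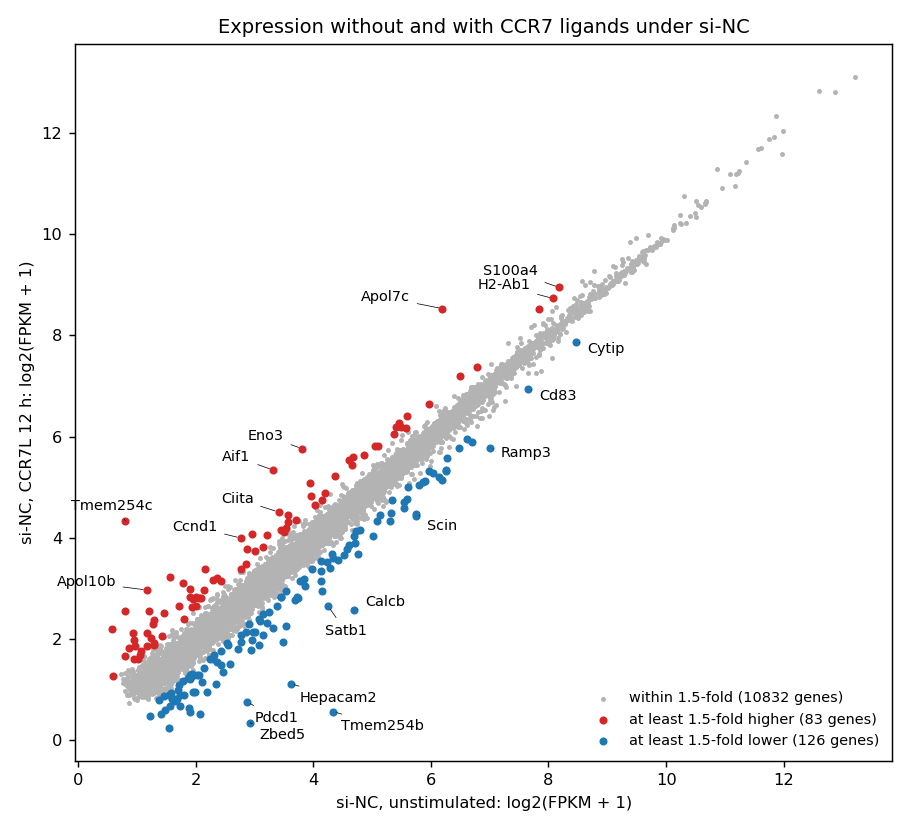
Each point is 1 of 11041 genes, with log2(FPKM + 1) of the unstimulated si-NC library on the x axis and of the CCR7L si-NC library on the y axis. The 83 genes at least 1.5-fold higher (red) and the 126 lower by the same size (blue) border the cloud of other genes along the diagonal, and few of them exceed 100 FPKM.

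Apol7c, Aif1 and Eno3 had the highest ratios with CCR7L after Tmem254c, whose value is uncertain. Apol7c, of the apolipoprotein L family of lipid-binding proteins, stood at 72.3 FPKM unstimulated and 368 with CCR7L in si-NC cells, and at 74.2 and 341 in si-Lnc-Dpf3 cells, log2 ratios of 2.33 and 2.18. Aif1, which encodes the actin-binding protein IBA1 of the macrophage lineage, stood at 8.96 and 39.5 and at 8.27 and 33.7, ratios of 2.02 and 1.90. Eno3, the muscle-type enolase, stood at 13.0 and 53.2 and at 12.5 and 53.1, ratios of 1.95 and 2.0. For these 3 genes both CCR7L libraries lay far above both unstimulated ones, and the siRNAs gave nearly equal levels. Sema6d, a transmembrane semaphorin that binds plexins, had 14.4 and 32.8 FPKM (si-Lnc-Dpf3: 13.5 and 28.2). S100a4, a calcium-binding protein linked to cell motility, had the highest level among the genes past 1.5-fold, 289 and 493 FPKM (si-Lnc-Dpf3: 281 and 461), with a ratio of 0.77.

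Further genes of the 15 highest ratios stood at low levels. Slc46a3, a lysosomal membrane transporter, had 1.97 and 8.37 FPKM (si-Lnc-Dpf3: 2.64 and 8.34). Scn4b, a beta subunit of voltage-gated sodium channels, had 1.32 and 4.90 (1.91 and 5.00), and the glycosyltransferase gene Extl1 had 6.76 and 15.9 (5.17 and 13.6). Gbp2b, an interferon-induced guanylate-binding protein, had 0.91 and 3.36 (0.60 and 2.90). In each of these the CCR7L libraries were the higher ones under both siRNAs. 2200002D01Rik, a gene of unknown role here, had 2.46 and 7.67 (2.38 and 6.45). For 3 further entries the value is uncertain. Tmem254c, at 0.75 and 19.3 FPKM, has near-identical copies, and the copy Tmem254b ran the other way, at 19.3 and 0.48, while the copies summed to 20.3 and 19.9. LOC100862446, a predicted gene, was higher with CCR7L in si-NC cells (3.45 and 9.40) and lower in si-Lnc-Dpf3 cells (11.6 and 7.12). Gm41035, also a predicted gene, had 0.50 and 3.59 FPKM in si-NC cells and 3.17 and 5.31 in si-Lnc-Dpf3 cells.

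Among the genes lower with CCR7L, Hepacam2, Calcb, Pdcd1 and Satb1 followed Tmem254b and Zbed5, whose ratios are uncertain or rest on 1 library. Hepacam2, an immunoglobulin-family membrane protein, stood at 11.3 FPKM unstimulated and 1.17 with CCR7L in si-NC cells and at 10.2 and 0.98 in si-Lnc-Dpf3 cells, log2 ratios of -2.5 and -2.49. Calcb, which encodes the beta form of calcitonin gene-related peptide, stood at 24.9 and 4.95 and at 23.8 and 5.08, ratios of -2.12 and -2.03. Ramp3, a receptor activity-modifying protein that joins the receptors of this peptide family, was the most abundant gene at least 2-fold lower, at 127 and 53.4 FPKM (si-Lnc-Dpf3: 99.98 and 44.9). The unstimulated libraries were the high ones for all 3 genes, with no overlap between the stimulations. Pdcd1, which encodes PD-1, an inhibitory receptor, had 6.35 and 0.69 FPKM (si-Lnc-Dpf3: 4.48 and 0.76). Satb1, a chromatin organiser known from T cells and dendritic cells, had 18.1 and 5.26 (16.9 and 5.26).

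Lower too were Tspan13, a tetraspanin, at 52.7 and 20.6 FPKM (si-Lnc-Dpf3: 43.7 and 19.8), and Scin, an actin-severing protein, at 52.6 and 21.1 (48.4 and 19.4). Rnf157, a ubiquitin ligase, had 10.2 and 2.83 (8.54 and 2.84), Ms4a4a, a tetraspan membrane protein of myeloid cells, 10.6 and 3.81 (9.93 and 3.11), and Gls2, a mitochondrial glutaminase, 3.59 and 0.95 (3.50 and 0.77). All of these were lower with CCR7L under each siRNA. Zbed5 had 6.62 FPKM in the unstimulated si-NC library alone and 0.27, 0.30 and 0.15 in the others, so its ratio of -2.58 rests on 1 library. Tmem151b, Wfdc9, Crisp3 and Tcea3 complete the 15 lowest, with 1.92 to 3.22 FPKM unstimulated and 0.18 to 0.55 with CCR7L in si-NC cells.

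**Figure D2:**
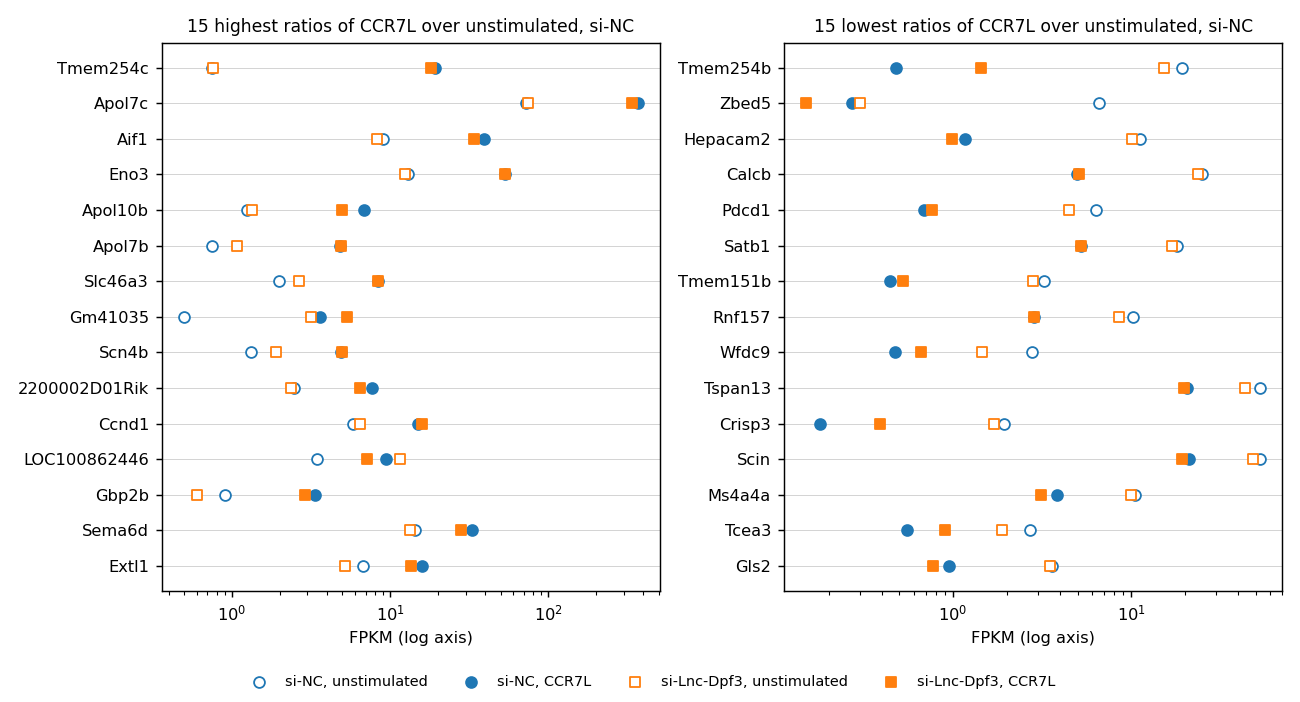
FPKM on a log axis for the 15 genes with the highest (left) and the 15 with the lowest (right) log2 ratio in si-NC cells, in the si-NC libraries (circles) and si-Lnc-Dpf3 libraries (squares), open for unstimulated and filled for CCR7L. Open and filled symbols separate under both siRNAs for most genes, while Zbed5 has a single high library at 6.62 FPKM and LOC100862446 runs opposite ways.

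MHC class II genes were higher with CCR7L as a group. Of the 14 listed genes all were measured, 12 had a ratio above 0, 5 were higher by at least 1.5-fold and 0 lower, against 0.752% and 1.14% of all genes. Their median was 0.38 with si-NC and 0.63 with si-Lnc-Dpf3, where the medians of all genes were -0.01 and -0.02. Ciita, the transactivator on which class II genes depend, had 9.65 and 21.8 FPKM (si-Lnc-Dpf3: 9.34 and 20.5). H2-DMb2, a chain of the peptide-loading molecule DM, had 24.4 and 47.5 (23.3 and 48.4). The antigen-binding chains H2-Ab1 and H2-Eb1 had 269 and 423 FPKM (206 and 390) and 229 and 364 (189 and 345), and H2-Eb2 had 2.30 and 5.29 (2.44 and 5.62). In all 5 genes both CCR7L libraries lay above both unstimulated ones. H2-Aa, at 378 and 540, and Cd74, the invariant chain, at 1856 and 2500, had ratios of 0.51 and 0.43, short of 1.5-fold. In si-Lnc-Dpf3 cells H2-Aa (315 and 508) and Cd74 (1516 and 2462) had ratios of 0.69 and 0.70, and 7 of the 14 genes were past 1.5-fold there.

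Not every gene of the pathway stood higher. The 3 subunits of the RFX complex that binds class II promoters differed little, with ratios of 0.25 for Rfx5, 0.19 for Rfxank and -0.12 for Rfxap. H2-DMa had a ratio of 0.19, H2-DMb1 of 0.33, and the DO chains, which restrain DM, of 0.15 for H2-Oa and -0.01 for H2-Ob. Class I genes, which present peptides made in the cytosol, differed less: of 20 listed, 12 were above 0, 0 were past 1.5-fold either way and the median was 0.04. In si-Lnc-Dpf3 cells 19 of the 20 were above 0 (44.3% of all genes), 0 were past 1.5-fold and the median was 0.18. In that pair the 811 genes at 100 FPKM or more had a median of 0.09, against -0.02 for all genes. The highest class I genes in si-NC cells were Psme2, Psmb8 and Psmb9 of the immunoproteasome, with ratios of 0.25, 0.24 and 0.22.

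**Figure D3:**
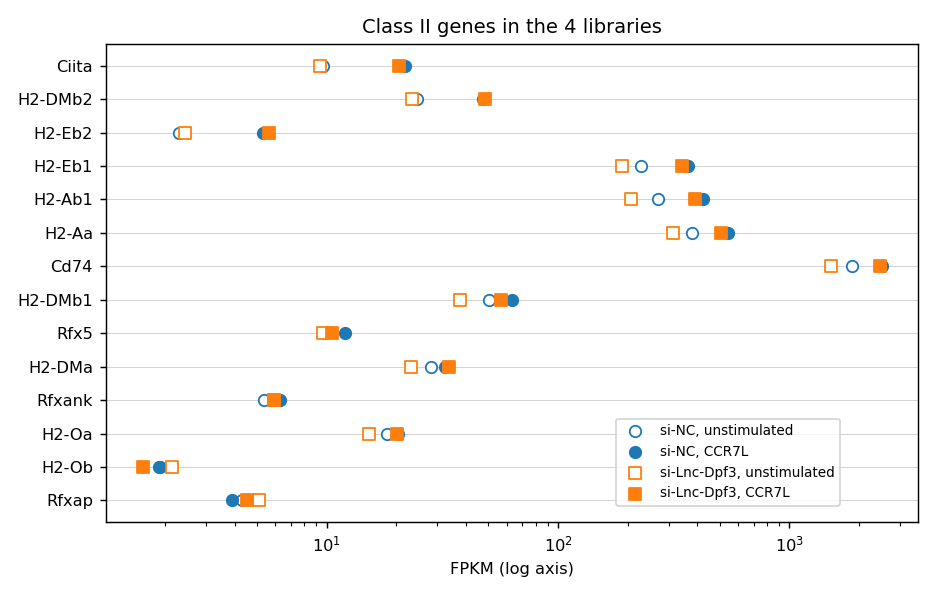
FPKM on a log axis for the 14 class II genes in the 4 libraries (circles si-NC, squares si-Lnc-Dpf3, open unstimulated, filled CCR7L), ordered by the si-NC ratio. Ciita, H2-DMb2 and the H2-E and H2-A chains are higher in both CCR7L libraries, from 9.65 to 21.8 FPKM for Ciita in si-NC cells, and the RFX subunits and H2-Ob lie close together.

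Class II promoters share an X box and a Y box at a fixed distance, which RFX and NF-Y bind and on which CIITA is assembled, and stretches holding them are printed since genes with and without a higher level carry these letters. They are from RefSeq promoter sequences of build GRCm38.p6, 5′ to 3′ on the strand of the gene. Capitals mark the Y box letters TGATTGG and the X box start GCAAC.
H2-Aa, chr17:34287844-34287923, minus strand: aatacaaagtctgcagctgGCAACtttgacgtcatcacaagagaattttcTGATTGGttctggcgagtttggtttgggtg
H2-Eb1, chr17:34305756-34305835, plus strand: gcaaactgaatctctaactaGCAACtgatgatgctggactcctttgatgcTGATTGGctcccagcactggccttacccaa
H2-Eb2, chr17:34325523-34325602, plus strand: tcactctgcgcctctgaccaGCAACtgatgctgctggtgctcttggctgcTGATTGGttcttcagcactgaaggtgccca
H2-DMb2, chr17:34145107-34145186, plus strand: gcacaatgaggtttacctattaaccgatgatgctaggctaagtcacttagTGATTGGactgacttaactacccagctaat
H2-Ob, chr17:34238796-34238875, plus strand: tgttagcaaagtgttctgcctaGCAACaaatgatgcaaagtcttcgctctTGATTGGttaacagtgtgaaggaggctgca
H2-DMb2, with a ratio of 0.93, holds the Y box without the letters GCAAC, and H2-Ob, with -0.01, holds both. Among promoters of 8942 measured genes, read on both strands from 250 bases before to 50 after the start, TGATTGG occurred in 12.27%. It occurred in 14 of 60 promoters of genes at least 1.5-fold higher (23.33%), 12 of 99 of genes at least 1.5-fold lower (12.12%) and 8 of 10 of the class II list. The 14 and the 8 overlap, since both include H2-Eb1, H2-Eb2 and H2-DMb2. GCAAC followed on the same strand by ATTGG, with starts 28 to 36 bases apart, occurred in 53 promoters (0.59%), 5 of them of the class II list. The 53 genes had a median ratio of 0.005, with 27 above 0 and 2, H2-Eb1 and H2-Eb2, at least 1.5-fold higher. These matches describe letters in a window and are neither shown to be binding sites nor a cause of the levels.

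The apolipoprotein L genes split by member. The table lists 12, of which 5 passed the filter, Apol7b through its CCR7L libraries. Besides Apol7c, Apol10b had 1.25 and 6.83 FPKM (si-Lnc-Dpf3: 1.33 and 4.97) and Apol7b 0.75 and 4.84 (1.07 and 4.91), both higher with CCR7L under each siRNA. Apol9a (14.96 and 14.6) and Apol9b (54.4 and 54.1), which are induced by interferon, had ratios of -0.03 and -0.01. Members of this family resemble each other in sequence. The submitters' notes name RSEM, and how well reads shared between these members were divided was not tested. The 3 higher genes lie within 176.3 kb on chromosome 15.

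The interferon-type motif, GAAA and GAAA with any 2 bases between them, searched on both strands, was found in 9 of 60 promoters of higher genes (15%), 4 of 99 of lower genes (4.04%) and 4.08% of all 8942. The higher genes with it were Apol7c, Aif1, Apol10b, Gbp2b, Extl1, Amica1, Gal3st2, Tlr11 and Dpp4, and the lower ones Vegfa, Stat4, Sipa1l1 and Cytip. Stretches of the promoters with the highest ratios are given from the same RefSeq source, with the motif or its reverse complement in capitals. Apol7c holds a pair of overlapping matches on the opposite strand.
Apol7c, chr15:77533336-77533395, minus strand: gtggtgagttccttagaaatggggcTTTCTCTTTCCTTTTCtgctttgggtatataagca
Aif1, chr17:35176175-35176234, minus strand: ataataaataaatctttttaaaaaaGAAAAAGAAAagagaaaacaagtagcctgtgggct
The genes of the interferon response list did not stand apart beside them. Of 34 listed genes 22 had a ratio above 0, 0 were past 1.5-fold and the median was 0.01, with the highest ratio, 0.20, for Ifi205 (109 and 126 FPKM). Of 17 guanylate-binding and immunity-related GTPases, Gbp2b was past 1.5-fold and the list median was 0.03.

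The ligands given to the cells were hardly transcribed by them: Ccl19 was listed at 0.21 FPKM in both si-NC libraries and Ccl21a at 0 and 0.06. Ccr7 was abundant and had a ratio of -0.25 in si-NC cells and -0.16 in si-Lnc-Dpf3 cells (685 and 615 FPKM). Cxcr4, the receptor of CXCL12, had 87.8 and 53.6 FPKM (si-Lnc-Dpf3: 83.5 and 58.1) and was the 1 gene past 1.5-fold among 21 measured chemokine and lipid receptors. S1pr1, a sphingosine phosphate receptor that guides cells out of tissue, had 5.20 and 3.51 (4.72 and 2.90).

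Genes of the machinery downstream of CCR7 differed by small amounts. Of 39 measured signalling genes 28 had a ratio below 0 (53.4% of all genes) and none were past 1.5-fold in si-NC cells. The median was -0.07, with -0.10 in si-Lnc-Dpf3 cells. Pik3cg, the PI3K catalytic subunit activated by G proteins, came closest, with 35.3 and 23.7 FPKM (si-Lnc-Dpf3: 35.5 and 22.1). Its ratio was -0.56 in si-NC cells and -0.66 in si-Lnc-Dpf3 cells, where it was the 1 signalling gene past 1.5-fold. Dock2, an activator of Rac needed for leukocyte migration, had 52.2 and 66.9, and Mapk3, which encodes ERK1, 101 and 81.7. The 40 actin and migration genes divided evenly, 20 above and 20 below 0, with 0 past 1.5-fold. At their ends stood the focal adhesion gene Zyx (126 and 83.8 FPKM, ratio -0.58) and the actin bundler Fscn1 (665 and 920, ratio 0.47, or 0.68 in si-Lnc-Dpf3 cells), a marker of mature dendritic cells. Of 23 integrin and adhesion genes 0 passed 1.5-fold, and the ratio farthest from 0 was 0.42 for F11r, a junctional adhesion molecule.

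Tubulin genes are a family chosen after the values were seen, so their counts are a description only. Of 13 measured, 11 had a ratio above 0 (46.1% of all genes) and 3 were at least 1.5-fold higher (0.752% of all genes). The beta-tubulin genes were Tubb2a with 41.4 and 72.4 FPKM (si-Lnc-Dpf3: 35.3 and 69.1), Tubb2b with 8.27 and 15.7 (7.90 and 16.1) and Tubb6 with 46.7 and 70.8 (45.98 and 70.4). Tubb2a and Tubb2b are close copies, and reads may be shared between them. Haus8, a subunit of the augmin complex that nucleates microtubules from microtubules, had 42.8 and 75.9 FPKM (41.3 and 75.2).

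Maturation and costimulation genes lay on both sides. Of 28 measured, 15 had a ratio above 0 and 13 below, and Cd83 was the 1 past 1.5-fold. Cd83, a surface marker of mature dendritic cells that stabilises class II and CD86, had 200 and 122 FPKM (si-Lnc-Dpf3: 165 and 101). The B7 genes Cd86 (133 and 90.96) and Cd80 (129 and 101) had ratios of -0.54 and -0.35, and Tnfrsf9, which encodes 4-1BB, -0.58. In si-Lnc-Dpf3 cells the ratios of these 3 genes were -0.53, -0.39 and -0.41. Cd40, which receives T cell help, was on the other side with 73.0 and 89.7 FPKM, as was the lipid-presenting Cd1d1 with 48.0 and 67.1. Cd83, Cd86 and Cd80 were lower and class II chains higher in the same CCR7L library, and this held in si-Lnc-Dpf3 cells.

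Inhibitory and tolerance-linked genes held few large ratios. Of 21 inhibitory receptors and ligands Pdcd1 alone was past 1.5-fold, and the others lay between -0.19 and 0.24. Of 21 tolerance-linked genes Ido1, an enzyme that degrades tryptophan, was past 1.5-fold at 7.51 and 4.09 FPKM (si-Lnc-Dpf3: 4.05 and 2.54). Dpp4, a surface peptidase that cleaves chemokines, was higher, at 10.3 and 16.3 (9.90 and 14.6).

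Cytokine genes lay mostly slightly below 0 and chemokine genes on both sides. Of 26 cytokine genes 19 had a ratio below 0 (53.4% of all genes), with a median of -0.08 (0.01 in si-Lnc-Dpf3 cells). Osm, an IL-6 family cytokine, was the 1 past 1.5-fold at 39.5 and 25.8 FPKM (32.2 and 24.9). Of 21 chemokine genes 0 were past 1.5-fold with si-NC and 3 were higher with si-Lnc-Dpf3, Ccl17, Ccl22 and Xcl1. The CCR4 ligands Ccl22 (3746 and 5145 FPKM) and Ccl17 (1257 and 1727), which draw T cells to dendritic cells, had ratios of 0.46 each, against 0.63 and 0.79 in si-Lnc-Dpf3 cells. Xcl1 had 1.75 and 1.95 FPKM with si-NC and 0.52 and 1.84 with si-Lnc-Dpf3. The inflammatory chemokine Ccl5 (4019 and 3042) had -0.40, or -0.13 in si-Lnc-Dpf3 cells.

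Transcription factors of the dendritic cell lineage lay on both sides of 0, 12 above and 16 below, with a median of -0.07. Of 28 measured, 4 were at least 1.5-fold lower, Satb1, Nfil3 and Runx3 among them, against 1.14% of all genes, and 0 were higher. Nfil3, a factor needed for the cross-presenting dendritic cell lineage, had 75.5 and 39.1 FPKM (si-Lnc-Dpf3: 64.9 and 35.8) and Runx3 61.3 and 39.1 (58.9 and 40.8). All 3 were lower in both CCR7L libraries. Zbtb46, the factor specific to conventional dendritic cells, had 13.9 and 10.4, a ratio of -0.38, and Irf8 227 and 195, a ratio of -0.22. Mycl, a Myc relative of dendritic cells, lay on the other side with 3.94 and 6.02. In the SOCS and STAT list of 21, Stat4, the mediator of IL-12 signals, was the 1 past 1.5-fold, with 75.3 and 39.6 FPKM (63.2 and 29.5). Il12rb2, a chain of the IL-12 receptor, had 34.4 and 20.8 (36.7 and 19.97).

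Some lower genes belong to cyclic AMP signalling, families again chosen after the values were seen. The phosphodiesterases Pde4b and Pde4d, which break down cyclic AMP, had 64.6 and 38.1 FPKM (si-Lnc-Dpf3: 56.3 and 32.3) and 5.61 and 2.5 (5.44 and 2.42). They were the only 2 of 12 measured phosphodiesterases past 1.5-fold, where 1.14% of all genes were lower by that size. Crem, a cyclic AMP-responsive transcription factor, had 22.8 and 12.8 (19.97 and 10.2). It was the 1 past 1.5-fold of 8 CREB family and coactivator genes, of which 7 were below 0 (53.4% of all genes). Nr4a2, an orphan nuclear receptor induced by cyclic AMP among other signals, had 6.74 and 2.97 (6.11 and 2.32) and was the 1 of 25 immediate early genes past 1.5-fold. Pde4b, Pde4d, Crem and Nr4a2 were lower under each siRNA, while adenylyl cyclases and protein kinase A subunits held no gene past 1.5-fold among 3 and 5. The cyclic AMP response element TGACGTCA was found in 2 of 99 promoters of lower genes (2.02%), in 1 of 60 of higher genes and in 3.62% of all. The absence of these letters from a window says nothing about the factor.

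Among glycolysis genes a single one stood out. Of 25 listed genes all were measured, 16 had a ratio above 0, and Eno3 alone was past 1.5-fold, while the list median was 0.02. The abundant enzymes Gapdh (2171 and 2328 FPKM) and Pgk1 (342 and 383) had ratios of 0.10 and 0.16, and Pfkfb3, which makes an activator of glycolysis, had 101 and 125. Hif1a, the oxygen-sensitive factor that drives this pathway, stood at 70.95 and 71.9 FPKM, a ratio of 0.02 (-0.13 in si-Lnc-Dpf3 cells). Of 21 measured HIF factors and targets 16 had a ratio below 0 (53.4% of all genes) and 2 were at least 1.5-fold lower (1.14% of all genes). These were the angiogenic factor Vegfa, at 38.6 and 19.0 FPKM (32.4 and 17.5), and the Max partner Mxi1, at 58.9 and 33.7 (60.8 and 36.4). Vhl, whose product marks HIF for degradation, had 27.41 and 38.03 (28.03 and 38.2).

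Cholesterol synthesis genes stood mostly above 0 by small amounts. Of 24 measured, 21 had a ratio above 0 (46.1% over all genes), and their median was 0.24 with si-NC and 0.14 with si-Lnc-Dpf3. Tm7sf2, a sterol reductase, was the 1 past 1.5-fold, with 7.08 and 12.4 FPKM (si-Lnc-Dpf3: 7.92 and 12.2). Hmgcs1, an early enzyme of the pathway, had 44.0 and 60.1 (54.3 and 62.7) and Idi1, the isopentenyl isomerase, 11.2 and 15.1 (12.9 and 15.7). The sterol-regulated genes Insig1 and Stard4 had ratios of 0.30 and 0.31 in si-NC cells and 0.03 and -0.04 in si-Lnc-Dpf3 cells. For these, the unstimulated level differed between the siRNAs, at 28.1 against 35.7 FPKM for Insig1.

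Ccnd1, the D-type cyclin that opens G1, was higher at 5.81 and 14.95 FPKM (si-Lnc-Dpf3: 6.45 and 15.8). It was the 1 past 1.5-fold of 21 D cyclins and G1 regulators. Ccnd2, far more abundant, had 208 and 287, and the inhibitors Cdkn1a (343 and 425) and Cdkn1b (22.4 and 17.0) lay on opposite sides. Of 25 mitosis genes and 25 replication genes 0 were past 1.5-fold with either siRNA. Their medians were 0.01 and 0.00 with si-NC, and -0.11 and -0.07 with si-Lnc-Dpf3. With si-Lnc-Dpf3, 2 and 3 of the 25 were above 0, against 44.3% of all genes. In the cell death list of 28, Bcl2l11, which encodes the pro-apoptotic BIM, was lower at 26.7 and 16.7 FPKM (22.9 and 15.5).

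Of 20 cathepsins and cystatins, Ctsh, a lysosomal aminopeptidase, was past 1.5-fold, with 109 and 166 FPKM (si-Lnc-Dpf3: 89.7 and 148), and Lgmn, the asparaginyl endopeptidase, had 80.2 and 61.8. Of 29 pattern receptors Tlr11 was past 1.5-fold at 0.51 and 1.40 FPKM, near the filter, and Tlr9, the receptor of CpG DNA, had 10.9 and 14.5. Proteasome subunits were above 0 in 32 of 37 cases (46.1% of all genes) with a median of only 0.07. Cytosolic ribosomal protein genes were below 0 in 66 of 81 cases in si-NC cells (53.4% of all genes), with a median of -0.06. Their median was 0.13 in si-Lnc-Dpf3 cells. The 77 mitochondrial ribosomal and 73 respiratory chain genes had medians of -0.01 and 0.03, with 0 past 1.5-fold. In the lists of NF-kappaB genes, interferon regulatory factors, matrix proteases, antioxidant, stress response, TCA cycle, vacuolar ATPase, eicosanoid, LXR and m6A genes, 0 genes were past 1.5-fold with either siRNA.

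**Figure D4:**
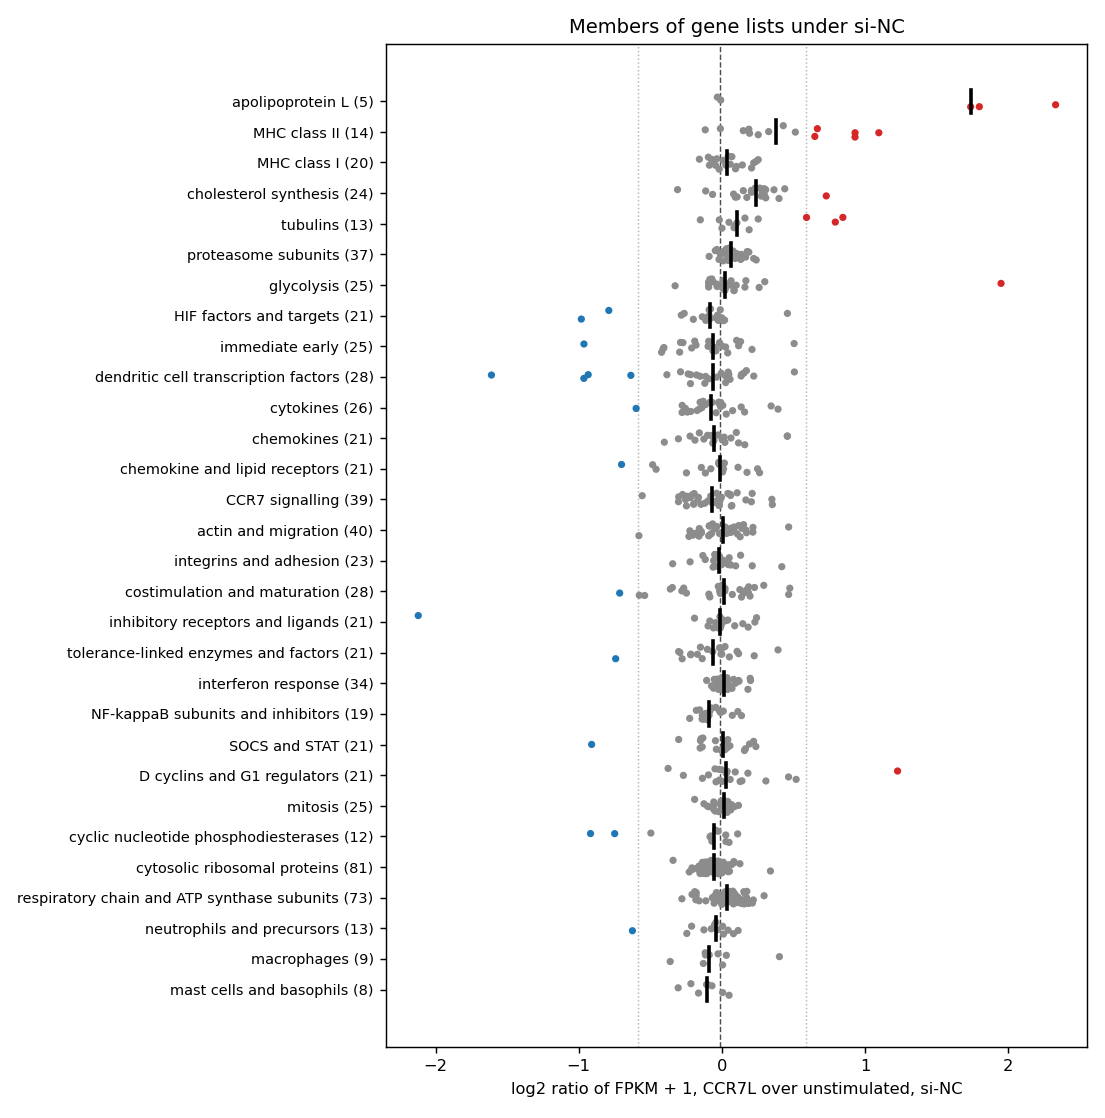
Each point is a measured member of a gene list (number in brackets) at its log2 ratio of FPKM + 1 in si-NC cells, red where at least 1.5-fold higher and blue where at least 1.5-fold lower. Black bars are list medians, the dashed line is the median of all genes at -0.01 and the dotted lines are 1.5-fold. Not every list is plotted. Among those plotted, the class II and apolipoprotein L lists have the medians farthest above 0, 0.38 and 1.74, and most others centre near 0. The 1.74 is the ratio of a single gene, Apol7b, with 0.75 FPKM unstimulated in si-NC cells and 1.07 in si-Lnc-Dpf3 cells. It passed the filter through its CCR7L libraries, so this median partly reflects the filter. The list of 3 measured sodium channel beta subunits, chosen after the values were seen, had a median of 0.88 and is not plotted. That median is the ratio of Scn2b, which had 0.97 and 0.86 FPKM in the unstimulated libraries and likewise passed through its CCR7L libraries.

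Dpf3, the protein-coding gene whose name the targeted non-coding RNA carries, was higher with CCR7L, at 0.93 and 2.03 FPKM in si-NC cells and 0.89 and 1.35 in si-Lnc-Dpf3 cells, ratios of 0.65 and 0.31. It lies near the filter, where counting error is largest. The non-coding RNA itself was not analysed here.

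Genes past 1.5-fold were in part neighbours on the chromosome. Of 205 such genes with coordinates, 21 had another within 100 kb. They formed 9 groups, each with a single direction. The matching share among all measured genes was not computed, so these counts are a description only. The higher groups were the apolipoprotein L genes, Tubb2a with Tubb2b on chromosome 13, the class II genes H2-Ab1, H2-Eb1 and H2-Eb2 within 78.2 kb on chromosome 17, and Amica1, Scn2b and Scn4b within 75 kb on chromosome 9. Only the last is not made of gene family copies throughout. Amica1, an adhesion molecule of leukocytes, had 23.4 and 45.3 FPKM (si-Lnc-Dpf3: 20.7 and 40.7), and Scn2b, another sodium channel beta subunit, 0.97 and 2.62 (0.86 and 2.48). The lower groups were Gatsl3 with Osm, Traf4 with Nek8, Galc with Gpr65, Plekhs1 with Nhlrc2 and Exd1 with Chp1. Gpr65, a proton-sensing receptor, had 45.6 and 25.3 FPKM (38.5 and 22.3) and its neighbour Galc, a lysosomal galactosylceramidase, 13.5 and 7.29 (12.5 and 7.58). Overlapping or adjacent genes can share reads, and whether the counting used strand is not given in the sources used here.

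The pair of libraries in si-Lnc-Dpf3 cells held 21 genes higher by at least 2-fold (0.19%) and 32 lower (0.29%), together 0.48%, and 122 (1.1%) and 142 (1.29%) at 1.5-fold, together 2.39%. Ratios above 0 made up 44.3% and ratios below 0 made up 55.4% there. Shared at 2-fold were 15 higher genes, 71.4% of either list, and 18 lower genes, 62.1% of the si-NC list and 56.2% of the other. At 1.5-fold 61 higher genes were shared, 73.5% of the si-NC list and 50% of the other, and 84 lower genes, 66.7% and 59.2%. A ratio of the same sign in si-Lnc-Dpf3 cells was found for 82 of 83 higher and 119 of 126 lower genes.

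The ratio varied little with transcript length in si-NC cells. Over 4 equal classes from the shortest to the longest transcripts, the median ratio was -0.01, -0.02, -0.01 and -0.01 in si-NC cells and 0.09, 0.01, -0.04 and -0.13 in si-Lnc-Dpf3 cells. Over 4 equal classes from the lowest to the highest GC content it was 0.03, -0.00, -0.02 and -0.05 in si-NC cells and -0.08, -0.05, 0.00 and 0.04 in si-Lnc-Dpf3 cells.

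**Figure D5:**
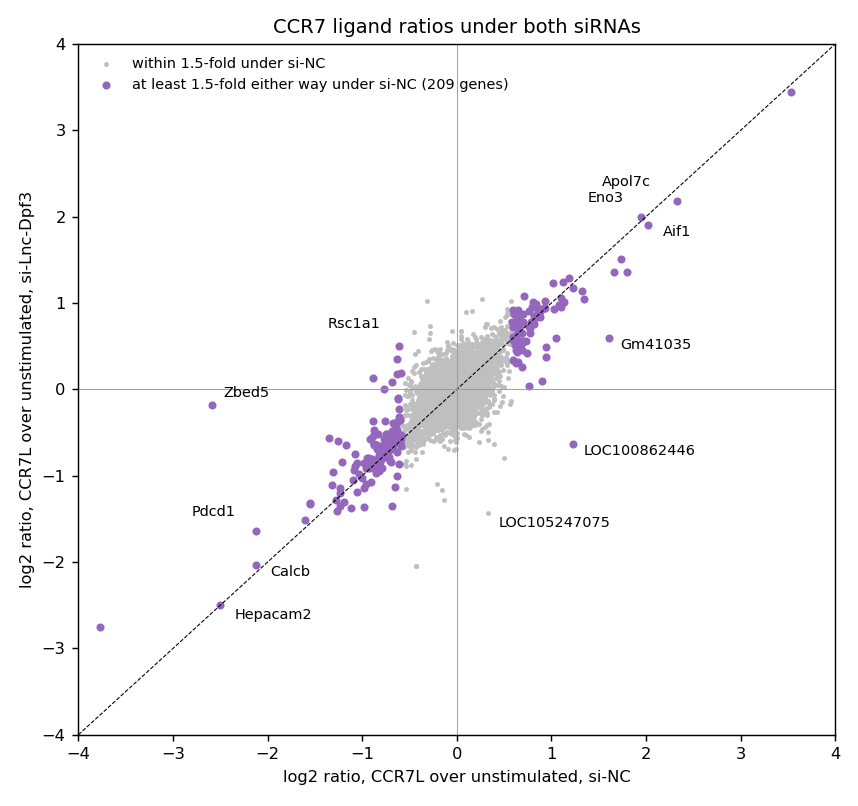
Log2 ratio of CCR7L over unstimulated in si-NC cells (x axis) and in si-Lnc-Dpf3 cells (y axis) for 11041 genes, with the 209 genes past 1.5-fold for si-NC in purple and the line of equal ratios dashed. Apol7c, Eno3, Aif1, Hepacam2 and Calcb lie near the line, whereas Zbed5, Gm41035 and LOC100862446 lie away from it.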

How the data were processed

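Per the labels' protocols, total RNA was extracted with TRIzol and sequenced on BGISEQ-500 at Beijing Genomics Institute. Bowtie2, RSEM and the build GRCm38 are named in the submitters' processing notes, with versions not given in the sources used here. Per the file headers, the authors deposited FPKM values with 2 decimals, which correct for transcript length and library size. Columns were matched to the 4 groups by the abbreviations in their names (nc or si, un or tr), and 0 sample columns were left unused. Genes were joined to RefSeq by Entrez number (17892 of 18021 matched), and 26 symbols turned into dates were restored.

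Ratios were taken on log2(FPKM + 1), a scale that understates how far weakly expressed genes differ, with Python 3.11.15, pandas 2.3.3 and numpy 2.4.6. The ratio step was tested on simulated data. Estimated depths put 58.0% to 65.6% of low values within 0.1 of an integer read number. A depth not fitted to these values would give 20% by chance, but the depths were fitted to them, so 20% is not a matched level. With the other values farther off, reads were not recovered and no count test was run. Counting errors cover counting only. With 1 library per group there is no test.

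The 49 gene lists and the genes studied were chosen with earlier results of these data known, and 8 further families after the values were seen. Named were the 15 highest and 15 lowest ratios, the 8 largest differences between siRNAs each way at a mean of at least 5 FPKM, and in each list up to 5 members with the largest ratio, every member past 1.5-fold and its key gene. Further genes, such as Ramp3, Tubb2a, Pde4b, S100a4, Haus8, Il12rb2 and chromosomal neighbours, were chosen after their values were seen. A listed gene past 1.5-fold is not reported here by name. Other pseudocounts, scalings and filters were tried as alternatives.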

Additional observations from a re-analysis of the deposited data

Results flagged for a closer look

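Of the 209 genes past 1.5-fold for si-NC, 7 had a ratio of opposite sign in si-Lnc-Dpf3 cells, and 3 of these averaged under 5 FPKM. The difference was not tested, since each ratio compares 1 library with 1. LOC100862446, a predicted gene, had a ratio higher by 1.86 in si-NC cells than in si-Lnc-Dpf3 cells on the log2 scale. In the other 6 genes the si-NC ratio was the lower one, with differences of -1.11 for Rsc1a1, -1.02 for Cd8b1, -0.98 for Doc2g, -0.82 for Gapdh-ps15, -0.78 for Dynlt1f and -0.77 for Pard6a. Rsc1a1 stood at 6.48 and 3.91 FPKM in si-NC cells and at 4.46 and 6.74 in si-Lnc-Dpf3 cells. Gapdh-ps15 is a processed copy of an abundant gene and Dynlt1f belongs to a family of close copies, so reads may be shared with other genes. Rhod had a ratio of -0.77 with si-NC and 0.00 with si-Lnc-Dpf3.

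Among genes averaging at least 5 FPKM, the largest differences between the siRNAs included predicted genes and near-identical copies. The si-NC ratio exceeded the other by 1.76 for LOC105247075 and by 0.73 for Hist1h2ao, and the difference was -1.02 for Tmem254b. It exceeded the other also for LOC102638183 (14.5 and 12.9 FPKM with si-NC, 19.3 and 8.06 with si-Lnc-Dpf3), for LOC108167440 by 0.88, for Gm3244 by 0.81, and for 1700066C05Rik and the C-type lectin gene Clec4b2 by 0.73 each. It was below it with differences of -0.78 for Gm10698, -0.73 for Rnaset2b, -0.70 for the cell fusion gene Dcstamp and -0.65 for Alkbh7. These differences were not tested.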

How the results depend on the processing

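The counts of genes past a fold depended on how low values were treated. A pseudocount of 0.1 gave 35 higher and 58 lower genes at 2-fold and 145 and 196 at 1.5-fold. With a pseudocount of 5 they were 4 and 8, and 38 and 53. With a mean of at least 5 FPKM required, they were 10 and 14, and 49 and 69, of 8412 genes. Scaling to equal summed FPKM, scaling by median ratio, no filter on low genes, and leaving out predicted or unmatched rows (an alternative chosen after seeing the data) kept all 4 counts within 1.5 times the reported ones. None of the 220 genes checked took the opposite sign under any alternative, but a pseudocount or a filter cannot change the sign of a gene's own ratio. Only the scalings could, and they moved the median of all genes from -0.012 to -0.017 and 0.002. The unchanged signs are therefore no check of the ratios. Sizes moved for 50 of the 220 genes with a pseudocount of 0.1 and for all but 97 with 5. Not every named gene was checked, and those left out include genes with ratios near 0. The median of all genes lay between -0.017 and 0.002 throughout. List medians changed sign under equal totals (4 lists, none beyond 0.005), median-ratio scaling (7, none beyond 0.014), no filter on low genes (2, none beyond 0.031) and the 5 FPKM filter (4). Among the last, the apolipoprotein L median of 1.74 turned negative, since Apol7c, Apol9a and Apol9b are left, and it was 0.03 with no filter.

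No paired analysis was possible because each group is 1 library, so the libraries share no more than the replicate number 1. No difference here has a replicate check. At 1 FPKM a 1.45-fold ratio of read numbers is within counting error for a transcript of median length, so the low genes among those named are the least certain. This fold is not on the scale of FPKM + 1 used for the ratios. The FPKM scale is relative within each library, and a change in total RNA per cell would not appear.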
